A study of Mus musculus with 6 samples.

Results

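The respiratory chain and ATP synthase were followed through 105 of the 23504 genes in the table. Members were the protein-coding mouse genes whose symbols start with Nduf, Uqcr, Cox4 to Cox8 or Atp5, together with Sdha to Sdhd, Cyc1, Cycs and the 13 protein genes of mitochondrial DNA. Of these, 92 are encoded in the nucleus and 13 in the mitochondrion. BMMs of C57BL/6 mice, macrophages grown from bone marrow, were treated with DASA-58, a small-molecule activator of the glycolytic enzyme PKM2, or with DMSO, its solvent, and RNA was taken after 3 days from 3 libraries per group. According to the results text both groups were induced with RANKL, the cytokine that turns macrophages into osteoclasts. The methods text leaves the RANKL treatment of the DMSO cells unclear and writes DASA-48 where the labels write DASA-58, and no concentration is given for the RNA-seq experiment. Replicates are told apart by number alone, so p-values measure only the spread between these samples, which may be technical.

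Complexes I and II pass electrons from NADH and succinate to coenzyme Q, complex III passes them on to cytochrome c, and complex IV (cytochrome c oxidase) passes them to oxygen. Complexes I, III and IV pump protons across the inner mitochondrial membrane, and ATP synthase uses the returning protons to make ATP. Complex II is built from nuclear genes alone, whereas complexes I, III and IV and ATP synthase combine subunits of both genomes. Osteoclasts are known as cells rich in mitochondria.

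Expression was deposited as FPKM, fragments scaled to gene length and to the depth of the library. Depth was worked out from the FPKM and gene lengths, at 18209396 to 18853041 fragments for the DMSO libraries and 18191560 to 18968556 for the DASA-58 libraries. Fragments recovered per gene with these depths summed to more, about 19667100 to 20637600 per library. Macrophage markers were abundant, with summed FPKM of 16480 to 17327 with DMSO and 17417 to 19724 with DASA-58. Most of each sum was Lyz2, at means of 15156 and 16826 FPKM, which was not among the markers called. Of the 10 markers tested 3 were higher (30%, against 4.24% of all genes) and 2 lower (20%, against 7.28%) with DASA-58. All 9 osteoclast markers tested were lower (100%, against 7.28% of all genes). The 10 listed summed to 778 to 833 FPKM with DMSO and 449 to 467 with DASA-58. Of 6 neutrophil markers tested 4 were lower (66.7%, against 7.28% of all genes), with sums of 167 to 171 FPKM against 130 to 137. Stromal markers summed to 34.3 to 36.3 FPKM and 34.7 to 35.7. T and NK cell, erythroid, dendritic cell and mast cell markers summed to at most 1.57 FPKM in any library and B cell markers to at most 2.38. Of 6 erythroid markers listed only 1, Alas2, was in the table. No marker in the table was at 0 in all libraries. The osteoclast and neutrophil markers differed between the same libraries as the members below, and their part in the member differences was not tested. In bulk RNA, fewer cells of a type and less RNA per cell cannot be told apart.

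Sequence bears on how the mitochondrial members can be read, because fragments of mitochondrial DNA also lie in the nuclear genome as unprocessed pseudogenes. The first bases of mt-Atp6, the proton channel subunit of ATP synthase, are shown beside its copy on chromosome 1, and the first bases of mt-Cytb, the mitochondrial subunit of complex III, beside its nearest annotated copy on chromosome 4. Capitals mark bases that differ between gene and copy. The mt-Atp6 stretch is chrM:7927-7986 and its copy Gm10925 is chr1:24614592-24614651 on the minus strand, both written in the direction of the gene (GRCm38, GENCODE M21).
mt-Atp6: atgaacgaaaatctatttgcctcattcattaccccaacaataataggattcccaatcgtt
Gm10925: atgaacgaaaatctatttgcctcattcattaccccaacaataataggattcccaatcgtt
The mt-Cytb stretch is chrM:14146-14205 and its copy Gm11410 is chr4:80003990-80004049 on the plus strand.
mt-Cytb: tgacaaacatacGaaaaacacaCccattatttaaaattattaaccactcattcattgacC
Gm11410: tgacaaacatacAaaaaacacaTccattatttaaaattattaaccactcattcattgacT
The mt-Atp6 pair has 0 differences in 60 bases and is identical over 678 bases, 99.6% of the gene. The mt-Cytb pair has 3 differences in 60 bases and is 92.9% identical over 1142 bases. A fragment of the first gene therefore has a second place of equal fit in the genome, and a fragment of the second differs from its copy at several bases.

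Of the 105 members, 100 had a mean of at least 1 FPKM and were tested, 88 nuclear and 12 mitochondrial. Nuclear members lay slightly below 0 almost throughout, and mitochondrial members lay on both sides of 0. The log2 fold change of FPKM + 1, DASA-58 against DMSO, was below 0 for 85 of 88 nuclear members with a median of -0.12, where the median of all 10965 genes tested was -0.03 and 59.8% lay below 0. With limma and a Benjamini-Hochberg adjusted p under 0.05, taken over the whole table tested, 19 of the 88 nuclear members were lower, which is 21.6%, against 7.28% of all genes tested, and the shares at matched level and length, given at the end, were closer together. Among nuclear members 0 were higher, against 4.24% of all genes. At an unadjusted limma p under 0.05, 47 nuclear members were lower and 0 higher. The share of all genes at that unadjusted p was not worked out, so unadjusted counts here and below have no background beside them. In 41 of the 88 (46.6%) the groups did not overlap and DASA-58 was the lower one, which held for 21.6% of all genes. The 3 nuclear members above 0, Atp5s at 0.09, Ndufb3 at 0.02 and Ndufa8 at 0.02, had overlapping groups.

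**Figure D1:**
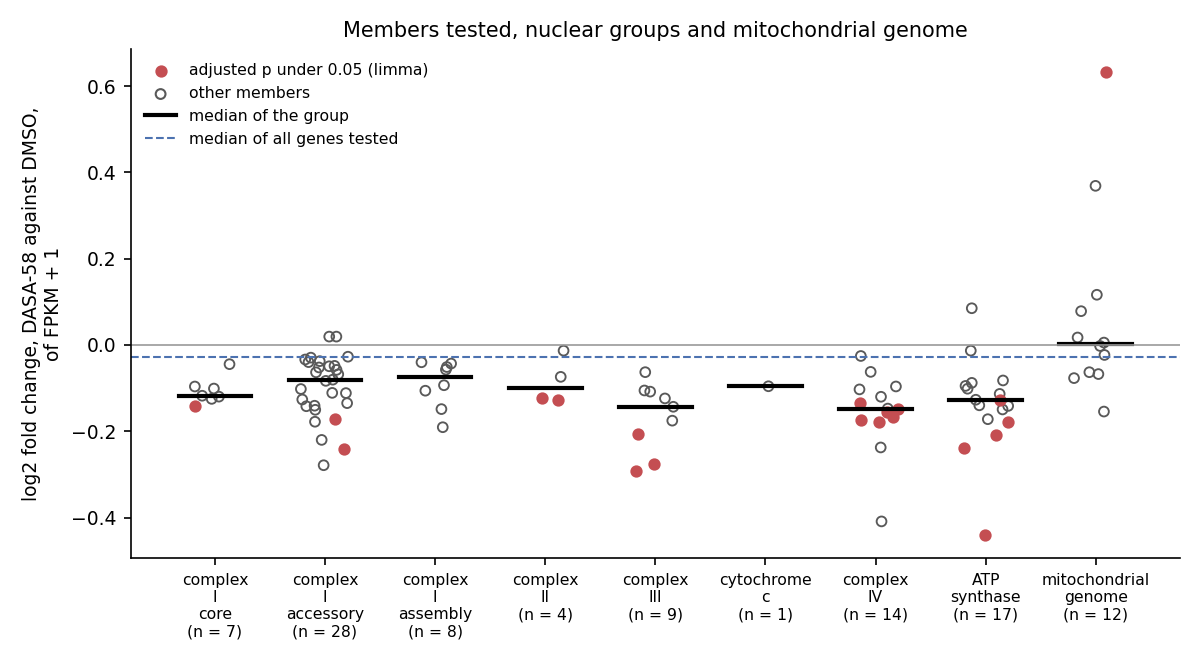
Log2 fold change of FPKM + 1 (vertical axis, DASA-58 against DMSO) of the 100 members tested, 1 point per member, by complex for nuclear members and together for mitochondrial members; filled points passed an adjusted p of 0.05, black bars are group medians and the dashed line is the median of all genes tested. Every nuclear group has its median under the dashed line, and mt-Atp6 stands alone at 0.63.

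The number of members called varied with the model and with the libraries kept. Of the 19 members, Cyc1, Atp5g3 and Atp5b were lower under all 18 alternative settings, Uqcrc1 under 17, Atp5k under 16, Atp5g1 under 15 and Atp5a1 under 12, and the other members under 6 to 10. The count was 8, 10 and 20 without DMSO replicates 1, 2 and 3. Without DASA-58 replicates 1, 2 and 3 it was 7, 7 and 8. Calls over all genes fell as well, from 798 lower to 385, 553 and 604 without DMSO replicates 1, 2 and 3. Without DASA-58 replicates 1, 2 and 3 they were 417, 465 and 396. Centring the libraries on their median gave 7 and turned the calls over all genes from 798 lower and 465 higher to 504 lower and 597 higher. The direction did not depend on the scaling, since 81 to 85 of the 88 nuclear members lay below 0 under each scaling tried.

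Summed over the 92 nuclear members, the level was 6539, 6895 and 6418 FPKM with DMSO and 5943, 6152 and 6153 FPKM with DASA-58. The groups did not overlap, and the DASA-58 mean of 6083 ± 121 FPKM was 91.9% of the DMSO mean of 6617 ± 248 (SD, n = 3). Summed over the 13 mitochondrial members, the level was 16400, 16747 and 17327 FPKM with DMSO and 16945, 17036 and 16926 FPKM with DASA-58, so that the groups overlapped. Without the 6 mitochondrial genes of mostly shared sequence, the other 7 summed to 15461, 15775 and 16354 FPKM with DMSO. With DASA-58 these 7 summed to 15974, 16047 and 15958 FPKM. The groups overlapped, and the DASA-58 mean was 100.8% of the DMSO mean. Without mt-Co1 as well, the remaining 6 summed to 7808, 7786 and 8149 FPKM with DMSO and 7555, 7691 and 7564 FPKM with DASA-58. These sums of 6 genes did not overlap, and the DASA-58 mean was 96.1% of the DMSO mean. mt-Co1 was higher in every DASA-58 library and is not mostly shared. The separation therefore depends on leaving it out. The ratio of the mitochondrial to the nuclear sum was 2.51, 2.43 and 2.70 with DMSO and 2.85, 2.77 and 2.75 with DASA-58. All 3 DASA-58 ratios were above all 3 DMSO ratios, and the log2 ratio differed by 0.13. The ratio was not tested, since an exact permutation test has 0.10 as its smallest p at n = 3 per group. With quantile normalization, which ties the top of all libraries to the same values, the difference was 0.01. With only the 6 genes of mostly shared sequence left out it stayed at 0.13, and with mt-Co1 also left out it was 0.06.

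**Figure D2:**
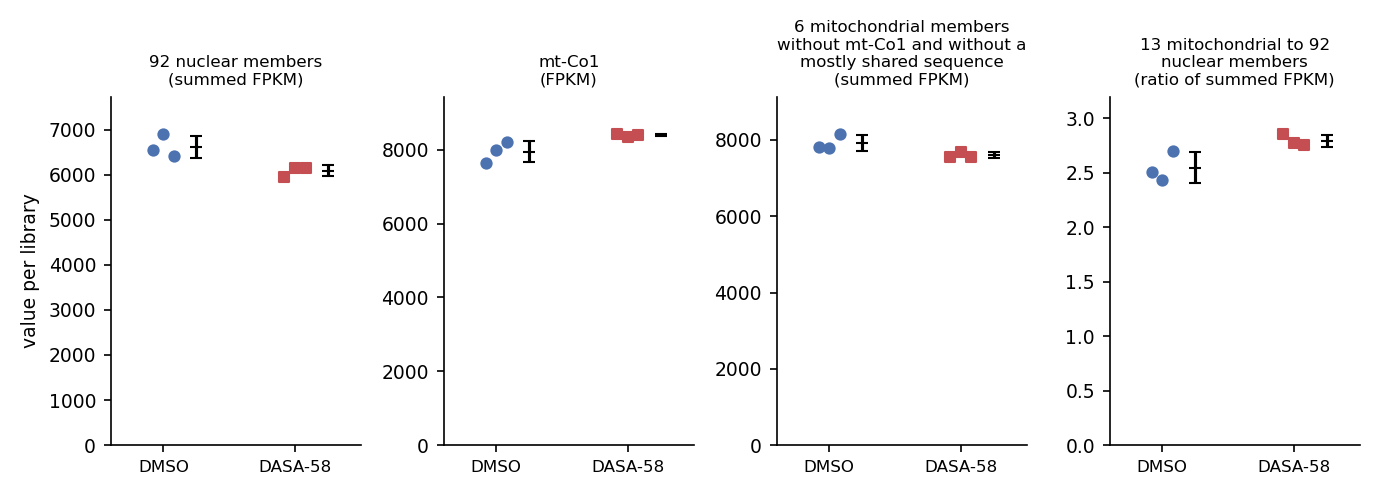
Summed FPKM of the 92 nuclear members, FPKM of mt-Co1, summed FPKM of 6 mitochondrial members without mt-Co1 and without a mostly shared sequence, and the ratio of the 13 mitochondrial to the 92 nuclear members, by library (points) with mean and SD (black, n = 3), each axis from 0. The nuclear sum was lower in all 3 DASA-58 libraries, mt-Co1 was higher in all 3, and the ratio lay between 2.43 and 2.70 with DMSO and between 2.75 and 2.85 with DASA-58.

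In complex I, the NADH dehydrogenase, 3 of 43 nuclear members tested were lower, a share of 6.98% and near the 7.28% of all genes. The 7 nuclear core subunits had a median of -0.12 and 1 of them, Ndufv1, was lower. Ndufv1, which binds NADH and the flavin, was at 42.4, 43.6 and 41.9 FPKM with DMSO and 37.5, 38.9 and 39.3 FPKM with DASA-58. The groups did not overlap and the log2 fold change was -0.14 (SE 0.03, limma adjusted p = 0.028). Of 28 accessory subunits tested 2 were lower (7.14%), and their median was -0.08. Ndufs6 was at 32.6, 36.7 and 32.4 FPKM against 27.9, 29.9 and 27.7 FPKM, all DASA-58 libraries below all DMSO libraries, with a log2 fold change of -0.24 (limma adjusted p = 0.0299). Ndufb8 was at 22.3, 23.0 and 21.9 FPKM against 18.7 to 20.7 FPKM (log2 fold change -0.17, limma adjusted p = 0.0402). Ndufa3 had the accessory subunits' most negative log2 fold change, -0.28, and did not pass the test (limma adjusted p = 0.0578). The most abundant accessory subunit, Ndufb9, was at 131 and 128 FPKM in the group means and did not pass either (log2 fold change -0.04). The 8 assembly factors named Ndufaf were all below 0 with a median of -0.08, and 0 passed the adjusted limma test (1 at an unadjusted p under 0.05). The furthest from 0 was Ndufaf4 at -0.19, with overlapping groups.

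Complex II, succinate dehydrogenase, had 2 of 4 members lower (50%, against 7.28% of all genes). Sdha, the flavoprotein that oxidises succinate, was at 96.9, 95.4 and 96.5 FPKM with DMSO and 90.4, 86.8 and 87.7 FPKM with DASA-58 (log2 fold change -0.12, limma adjusted p = 0.025). Sdhb, the iron-sulfur subunit, was at 73.7, 73.4 and 69.8 FPKM against 65.9, 65.9 and 66.3 FPKM (log2 fold change -0.13, limma adjusted p = 0.0329). In both genes the groups did not overlap. The membrane anchors did not pass the test, Sdhd at -0.07 without overlap and Sdhc at -0.01 with overlapping groups.

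Complex III, which passes electrons from coenzyme Q to cytochrome c, had the lowest nuclear sum relative to DMSO, 88.0%, and all 9 nuclear members were below 0 with a median of -0.14. Cyc1 (ENSMUSG00000022551, chr15:76343523-76346260, plus strand) encodes cytochrome c1, the subunit that hands electrons to cytochrome c. It was at 149, 157 and 147 FPKM with DMSO and 122, 122 and 127 FPKM with DASA-58. The groups stood well apart, the DASA-58 mean was 81.5% of the DMSO mean, and the log2 fold change was -0.29 (SE 0.03, limma adjusted p = 0.00179). Uqcrc1, a core subunit on the matrix side, was at 68.9, 69.2 and 65.6 FPKM against 57.3, 58.3 and 60.5 FPKM, with a log2 fold change of -0.21 (limma adjusted p = 0.00919). Uqcr11, a small accessory subunit, was at 94.2, 102 and 83.7 FPKM against 74.5, 79.3 and 76.0 FPKM, again without overlap (log2 fold change -0.28, limma adjusted p = 0.034). Cytochrome c itself, Cycs, was at 37.2, 40.8 and 38.8 FPKM against 35.6, 37.4 and 36.0 FPKM, the groups overlapped, and it did not pass the test (log2 fold change -0.10, limma adjusted p = 0.171).

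Complex IV had 6 of 14 nuclear members tested lower (42.9%, against 7.28% of all genes). All 14 were below 0, with a median of -0.15. Cox4i1, the common form of subunit 4, was at 128, 125 and 118 FPKM with DMSO and 111, 110 and 111 FPKM with DASA-58 (log2 fold change -0.16, limma adjusted p = 0.0266). Ndufa4, named for complex I and now counted as a complex IV subunit, was at 102, 103 and 98.3 FPKM against 86.0, 90.7 and 92.3 FPKM (log2 fold change -0.17, limma adjusted p = 0.0194). The small subunits Cox6b1 (-0.14), Cox6c (-0.15), Cox7b (-0.17) and Cox7c (-0.18) were also lower, with limma adjusted p between 0.0347 and 0.0493. None of these 6 had overlapping groups. Cox8a, at a log2 fold change of -0.12 without overlap, did not pass the test (limma adjusted p = 0.0832). Cox6a1, the nuclear member with the highest level, was at 432, 490 and 407 FPKM against 404, 429 and 437 FPKM and its groups overlapped (log2 fold change -0.06).

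Several complex IV subunits have a second form used in other tissues, and those forms were near the floor in both groups. Cox6a2, the muscle form of subunit 6a, was at 0.698 to 1.44 FPKM, while Cox6a1 was at 404 to 490 FPKM. Cox7a1, the muscle form of subunit 7a, was at 1.03 to 4.56 FPKM, whereas Cox7a2 was at 94.4 to 108 FPKM and Cox7a2l, which takes part in supercomplex assembly, at 217 to 230 FPKM. Cox4i2 was at most 0.484, Cox6b2 at most 0.446 and Ndufa4l2 at most 0.0502 FPKM. The second forms that were tested, Cox6a2 at -0.24 and Cox7a1 at -0.41, had overlapping groups and did not pass. A count of 0 allows up to 3 fragments, and this covers counting error only.

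ATP synthase had 5 of 17 nuclear members lower (29.4%, against 7.28% of all genes). Of the 17, 16 were below 0, and the median was -0.13. Atp5b (ENSMUSG00000025393, chr10:128083273-128090391, plus strand), the catalytic beta subunit, was at 325, 314 and 318 FPKM with DMSO and 276, 288 and 282 FPKM with DASA-58. All DASA-58 libraries were below all DMSO libraries and the log2 fold change was -0.18 (SE 0.03, limma adjusted p = 0.0061). Atp5a1, the alpha subunit of the same ring, was at 305, 298 and 306 FPKM against 282, 275 and 275 FPKM (log2 fold change -0.13, limma adjusted p = 0.0157). Atp5k, the e subunit of the membrane part, had the most negative log2 fold change of all nuclear members, -0.44 (SE 0.08, limma adjusted p = 0.0126). Its levels were 39.4, 45.3 and 37.1 FPKM against 29.7, 31.9 and 27.2 FPKM, from 318 to 526 fragments per library.

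The 3 genes Atp5g1, Atp5g2 and Atp5g3 encode the same mature subunit c, the rotor ring that protons turn. Atp5g3 (ENSMUSG00000018770, chr2:73908447-73911326, minus strand) was the most abundant, at 139, 140 and 137 FPKM with DMSO and 114, 119 and 118 FPKM with DASA-58. The groups stood apart, with a log2 fold change of -0.24 (SE 0.03, limma adjusted p = 0.00168). Atp5g1 was at 22.6, 24.7 and 23.4 FPKM against 19.9, 20.6 and 20.1 FPKM (log2 fold change -0.21, limma adjusted p = 0.0155). Atp5g2 was at 96.3, 105 and 94.7 FPKM against 91.3, 96.1 and 89.5 FPKM, its groups overlapped, and it did not pass the test (log2 fold change -0.09, limma adjusted p = 0.223). Whether Atp5g2 differs from the other two in its response was not tested.

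**Figure D3:**
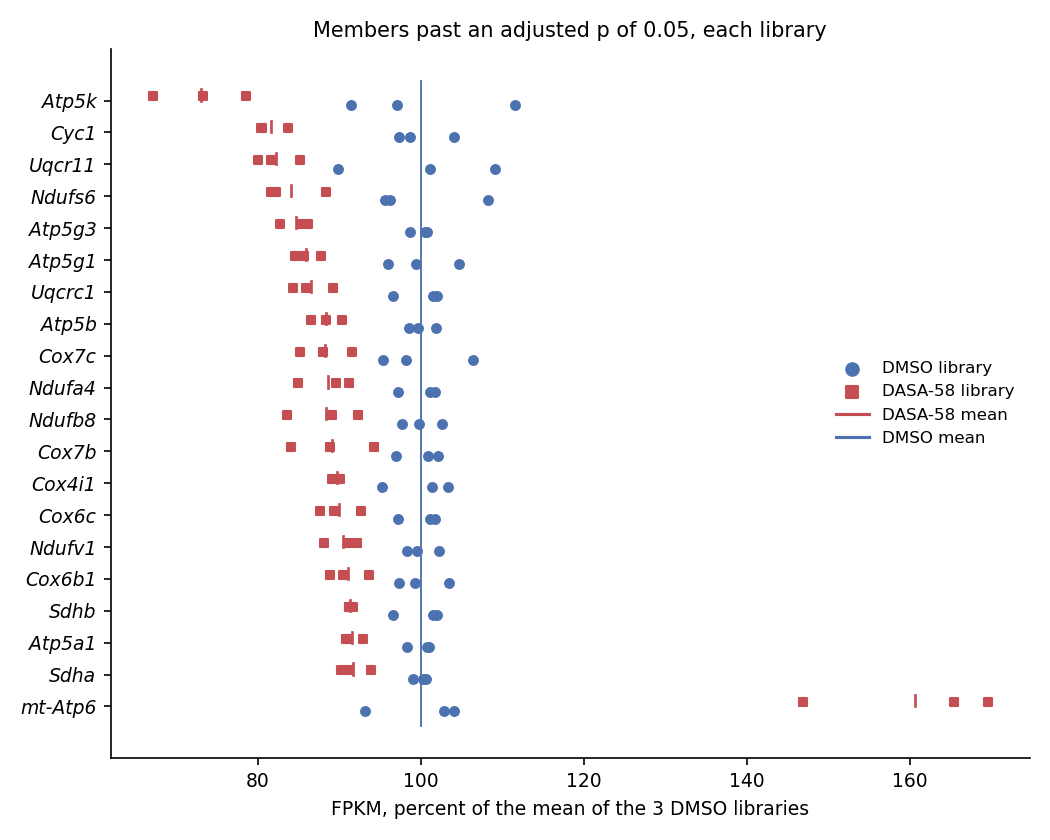
FPKM of the 20 members past an adjusted p of 0.05, as percent of the mean of the 3 DMSO libraries (horizontal axis), for each DMSO library (circles) and DASA-58 library (squares), with the DASA-58 mean as a short line and the DMSO mean at 100. In the 19 nuclear members all squares lie below all circles, from a mean of 73.0% for Atp5k to 91.7% for Sdha, and in mt-Atp6 they lie above, at a mean of 161%.

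The 13 mitochondrial genes spanned a wide range of levels. The most abundant was mt-Co1, the catalytic subunit of complex IV, at 7653, 7990 and 8205 FPKM with DMSO and 8419, 8356 and 8394 FPKM with DASA-58. It was higher in every DASA-58 library but did not pass the test (log2 fold change 0.08, limma adjusted p = 0.136). mt-Cytb followed at 2603, 2694 and 2683 FPKM against 2544, 2550 and 2520 FPKM, and mt-Nd1 of complex I at 2355, 2302 and 2432 FPKM against 2227, 2262 and 2230 FPKM. Both were lower in every DASA-58 library and did not pass the test (log2 fold changes -0.07 and -0.08, limma adjusted p = 0.111 and 0.109). The complex I gene mt-Nd2 was also lower in every DASA-58 library and did not pass (log2 fold change -0.06, limma adjusted p = 0.249). Of the 12 mitochondrial genes tested, these 3 (25%) were lower without overlap, near the 21.6% of all genes. mt-Co1 and mt-Atp6 were the 2 that were higher without overlap, which held for 11.8% of all genes. The complex I genes mt-Nd5 (-0.02), mt-Nd4 (0.00) and mt-Nd6 (0.01) had overlapping groups. Because the use of strand was not stated, fragments of mt-Nd6, which lies on the opposite strand, cannot be told apart from transcripts antisense to it. Over the 12 genes tested, 6 were below 0, the median was 0.00 (-0.04 over the genes without a mostly shared sequence, mt-Co1 included, and 0.07 over those with one), and 0 were lower and 1 higher at an adjusted p under 0.05 (2 lower and 2 higher at an unadjusted limma p under 0.05).

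The member that was higher was mt-Atp6 (ENSMUSG00000064357, chrM:7927-8607, plus strand). It was at 9.12, 10.2 and 10.1 FPKM with DMSO and 16.2, 16.6 and 14.4 FPKM with DASA-58, from 114, 131 and 125 fragments against 208, 206 and 186. The groups stood apart, the log2 fold change was 0.63 (SE 0.06, limma adjusted p = 0.00109), and the call held under all 18 alternatives. These levels lie far below those of mt-Co1 and mt-Cytb. As in the sequence shown above, 99.5% of all windows of 100 bases of mt-Atp6 occur exactly in an annotated pseudogene. mt-Nd4, with 60.8% of windows shared and a copy that covers 63.6% of the gene, had a mean of 896 FPKM. mt-Atp8, with 0% of windows shared with annotated pseudogenes, had a mean of 0.353 FPKM, and nuclear sequence outside annotated pseudogenes was not searched. Whether level follows shared sequence was not tested. The copy Gm10925 was at 34.6, 35.5 and 32.3 FPKM with DMSO and 49.3, 49.2 and 34.2 FPKM with DASA-58, overlapped between groups and did not pass the test (log2 fold change 0.35, limma adjusted p = 0.127).

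A further 4 mitochondrial genes shared at least 97.6% of such windows with pseudogenes, and all 4 were low. mt-Co2 (99.5% shared) was at 41.4, 37.3 and 26.7 FPKM against 50.2, 51.3 and 35.2 FPKM, with overlapping groups and a log2 fold change of 0.37 that did not pass the test (limma adjusted p = 0.234). mt-Co3 (99.9%) was at 12.2 to 21.9 FPKM, mt-Nd3 (97.6%) at 0.757 to 1.98 FPKM and mt-Nd4l (98.5%) at 0.533 to 2.04 FPKM, and none of them passed. mt-Nd4 shared 60.8%, mt-Co1 30.8% and mt-Nd2 3.19%, and their mean levels were 896, 8169 and 1089 FPKM (DMSO and DASA-58 together). mt-Nd1, mt-Nd5, mt-Nd6 and mt-Cytb shared 0% and had means of 598 to 2599 FPKM.

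mt-Atp8, a small ATP synthase subunit gene, was at 0 to 0.538 FPKM, at most 2 fragments, and was not tested. It shares 0% of its 100-base windows with annotated pseudogenes. A shorter stretch, 43 of its 204 bases, is identical in Gm10925, and 167 bases align to Gm28925 at 81.4% identity. The part of these in its low level was not tested. The mt-Atp8 gene lies between mt-Co2 and mt-Atp6. The annotated copies of these neighbours on chromosome 1 are 233 bases apart, as are the matching parts of the mitochondrial genes, and the sequence of that gap was not compared.

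The copies on chromosome 1 are 7 pseudogenes side by side at chr1:24611535-24616197 on the minus strand (GRCm38). They hold mt-Atp6, mt-Co2, mt-Co3, mt-Nd3, mt-Nd4l and 63.6% of mt-Nd4 without a difference, and 31.3% of mt-Co1 with 1 difference. All 7 were tested, their log2 fold changes ran from -0.38 for Gm10222 to 0.35 for Gm10925, and 0 passed the adjusted limma test (smallest adjusted p = 0.127), with 1 of them, Gm10925, at an unadjusted p under 0.05. How fragments with several equal places were counted is not given in the sources used here, and its part in the level of these 6 genes, and in the difference in mt-Atp6, was not tested. This check of copies was chosen after the values were seen.

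**Figure D4:**
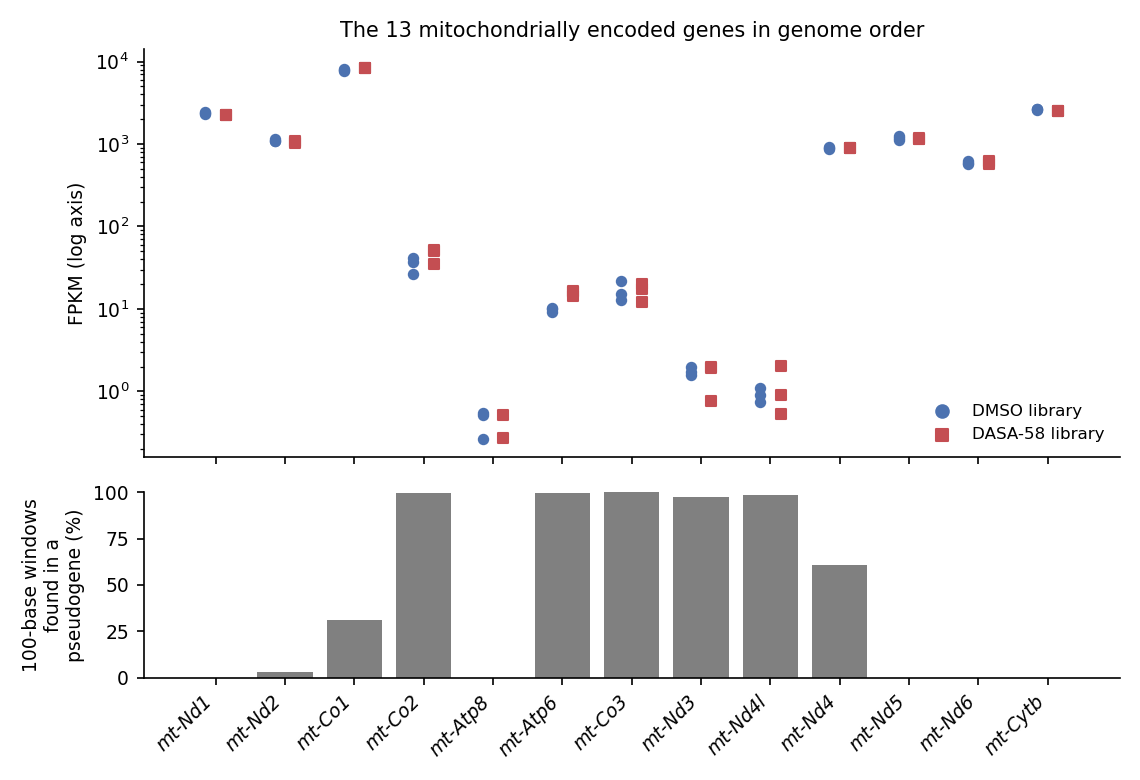
FPKM of the 13 mitochondrial genes in genome order on a log axis (circles, DMSO libraries; squares, DASA-58 libraries) above the percent of 100-base windows of each gene found exactly in an annotated pseudogene; the DASA-58 library with mt-Atp8 at 0 is not drawn. The 5 genes with at least 97.6% shared windows reach at most 51.3 FPKM, and those with 0% apart from mt-Atp8 are at 574 FPKM or more.

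The promoters of the nuclear members were searched for motifs of factors known to act on respiratory chain genes. RefSeq promoters (GRCm38.p6, 250 bases before to 50 after the start) were found for 73 of the 92. Words of 7 letters were searched on both strands. The core of the NRF1 motif, GCATGCG, was in 14 of 73 (19.2%), against 4.01% of all genes and 7.74% of the other genes tested. The ETS motif CCGGAAG, bound by GABP, was in 18 of 73 (24.7%), against 9.93% and 22.6%. The core of the YY1 motif, AAGATGG, was in 11 of 73 (15.1%), against 7.28% and 9.13%. The ends of the ETS and YY1 words can overlap, and the NRF1 word can overlap its own reverse. Among the 15 lower members with a promoter, 4 held the NRF1, 4 the ETS and 3 the YY1 word, 8 genes in all, since Atp5k, Sdhb and Uqcr11 each held both the NRF1 and the ETS word. The words were chosen after earlier results were known, and a match is a description of the letters.

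Of these 8 genes, the 4 that held a word wholly before the start are shown with that word in capitals and 100 bases ahead of it, as the RefSeq table gives them. In Uqcrc1, Ndufs6, Ndufb8 and Cox7c the word lay after or across the start, as did the second word of Atp5k, Sdhb and Uqcr11, and these are not shown. The Atp5k stretch is chr5:108434436-108434548 on the minus strand and the Sdhb stretch chr4:140961117-140961228 on the plus strand, both with the NRF1 word. The Uqcr11 stretch is chr10:80406876-80406987 and the Cox6b1 stretch chr7:30626131-30626242, both on the minus strand with the ETS word. All are written in the direction of the gene.
Atp5k: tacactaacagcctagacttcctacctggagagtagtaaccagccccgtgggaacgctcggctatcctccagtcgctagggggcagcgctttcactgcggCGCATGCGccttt
Sdhb: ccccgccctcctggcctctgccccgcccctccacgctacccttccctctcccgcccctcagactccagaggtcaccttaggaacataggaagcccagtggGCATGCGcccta
Uqcr11: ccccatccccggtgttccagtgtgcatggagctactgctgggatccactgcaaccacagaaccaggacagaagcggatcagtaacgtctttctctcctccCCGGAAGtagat
Cox6b1: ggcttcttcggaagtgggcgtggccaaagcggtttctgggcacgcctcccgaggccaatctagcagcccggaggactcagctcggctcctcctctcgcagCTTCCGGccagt
The log2 fold changes of these members were -0.44 for Atp5k, -0.13 for Sdhb, -0.28 for Uqcr11 and -0.14 for Cox6b1. In Atp5k the NRF1 word and its reverse overlap, and Cox6b1 carries the ETS word on the opposite strand. The words start 49, 54, 66 and 28 bases before the RefSeq start of Atp5k, Sdhb, Uqcr11 and Cox6b1. By GENCODE M21 the last 13 bases of the Atp5k stretch, 26 of Sdhb and 21 of Cox6b1 lie inside the gene.

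Of the proteins that build or feed the chain without being members, complex IV assembly factors had 5 of 18 tested lower (27.8%, against 7.28% of all genes) and 0 higher. They included Cox14 (66.9 to 59.4 FPKM in the group means, log2 fold change -0.17, limma adjusted p = 0.00968), Cox11, which delivers copper (5.79 to 4.24 FPKM, -0.38), and Cox18, which inserts mt-Co2 protein into the membrane (5.98 to 5.16 FPKM, -0.18). Complex II assembly factors had 1 of 2 tested lower (50%, against 7.28% of all genes), Sdhaf2, which helps to attach the flavin of Sdha (-0.16). Assembly factors of complex III (5 tested), of ATP synthase (4) and of complex I outside the Ndufaf names (7) had 0 called in either direction, with medians of -0.08, -0.09 and -0.02, and 1, 1 and 2 lower at an unadjusted limma p under 0.05.

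For coenzyme Q, the carrier between the complexes, 1 of 13 synthesis genes was lower (7.69%, near the 7.28% of all genes) and 0 were higher. Coq8a, a kinase-like protein of that pathway, was at 9.58, 9.01 and 9.09 FPKM with DMSO and 5.92, 5.71 and 5.11 FPKM with DASA-58. Its groups stood far apart (log2 fold change -0.64, SE 0.06, limma adjusted p = 0.00063), and the median of the 13 was -0.06. Among the other enzymes that reduce coenzyme Q, 1 of 6 tested was higher (16.7%, against 4.24% of all genes). This was Sqor, which oxidises sulfide, at 17.5 to 18.2 FPKM against 21.8, 20.9 and 22.6 FPKM (log2 fold change 0.26, limma adjusted p = 0.00541).

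Of 7 nuclear regulators tested, 2 were lower (28.6%, against 7.28% of all genes). Ppargc1b, a coactivator of mitochondrial gene expression, was at 2.64, 2.74 and 2.57 FPKM against 2.09, 1.82 and 1.81 FPKM (log2 fold change -0.33, limma adjusted p = 0.0182), and the related Pprc1 had a log2 fold change of -0.25 (limma adjusted p = 0.012). Genes of mitochondrial transcription and DNA replication had 0 of 13 called by limma, with a median of -0.02 and 3 lower at an unadjusted p under 0.05. Among carriers, Slc25a5, an ADP/ATP carrier, was lower (420 to 381 FPKM in the group means, log2 fold change -0.14, limma adjusted p = 0.0107). It was the 1 called of 4 carriers tested (25%, against 7.28% of all genes lower). In the MICOS and cristae list 1 of 10 was lower (10%, near the 7.28% of all genes), Chchd10 (1.78 to 1.21 FPKM, log2 fold change -0.33, limma adjusted p = 0.0394).

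Small downward shifts were also seen in the ribosomal protein genes of both compartments. Of 76 mitochondrial ribosomal proteins tested, 72 were below 0 with a median of -0.10, and 5 were lower and 0 higher (6.58% lower, near the 7.28% of all genes). Of 90 cytosolic ribosomal proteins tested, 84 were below 0 with a median of -0.11. Of these 90, 26 were lower and 1 higher (28.9% and 1.11%, against 7.28% and 4.24% of all genes). Respiratory chain members at -0.12 thus lay beside both families, and no difference between them was tested. Among genes of the middle lengths of the nuclear members (1032 to 2776 bases), the median was -0.11 for 44 members and -0.03 for 2367 other genes. Among genes of their middle levels (22.6 to 95.3 FPKM), it was -0.12 for 44 members and -0.02 for 1968 other genes. The share of genes called lower was nearer to that of other genes when these were matched. At middle levels 20.5% of members and 12.4% of other genes were lower, at middle lengths 18.2% and 8.62%, and at middle lengths and levels together 12.5% of 24 members and 11.9% of 613 other genes, with medians of -0.11 and -0.03.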

How the data were processed

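The authors deposited 1 table of FPKM for 6 libraries, and all value columns were used (0 left unmapped). The submitters' processing notes name HISAT2 2.1.0, HTSeq 0.6.0 and the build mm8, without roles. Gene lengths of GENCODE M21 (GRCm38) turned the FPKM of 21367 genes (90.9%) into whole fragments (tolerance 0.02) in all libraries, 88 of the members included, so the build named and the lengths differ; positions printed here are of GRCm38. Annotation, strand and the treatment of fragments with several places are not given in the sources used here. Columns were grouped by the treatment in the labels. Of 109 annotated members, 105 are listed; 49 identifiers of the table had no symbol.

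DASA-58 and DMSO libraries were tested in R 4.3.3 with limma 3.58.1 (lmFit, eBayes with a trend) on log2(FPKM + 1), which understates changes of low genes. The 10965 genes averaging 1 FPKM or more entered, with Benjamini-Hochberg adjustment over these. The fit was checked on simulated data. The members and lists were chosen with earlier results of these data known, so no sum, median or list was tested. Members named were all mitochondrial ones, the 15 nuclear ones with the smallest p among those called, the highest level and the largest change of each group, isoforms, Sdha to Sdhd, Cyc1 and Cycs, and at most 3 called genes per other list. Ndufb8, Cox7b, Cox7c, Atp5s, Ndufb2, Ndufb3, Ndufa8, Ndufab1 and Atp5l were named after their values were seen. Alternatives were pseudocounts of 0.1 and 5, no filter and a minimum of 5 FPKM, 4 scalings, 2 variance models, the replicate number as a block, each library left out, and equal totals without mitochondrial genes, which was added after seeing the data. Python 3.11.15 with pandas 2.3.3 and matplotlib 3.10.9 made the tables and plots.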

Additional observations from a re-analysis of the deposited data

How the results depend on the processing

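The nuclear median stayed below 0 under all alternatives, between -0.13 and -0.09 (log2 fold change), and no value of a called member reversed. The count of 19 lower members was 6 without a filter on low values, 7 with centring on the median, 7 with a trimmed mean of log ratios, 6 without a trend in the variance and 4 without variance shrinkage, whereas it was 31 with equal FPKM totals and 31 with equal totals without mitochondrial genes, mt-Cytb included (log2 fold change -0.08 and -0.09). Leaving out 1 library gave 7 to 20 lower members, and 385 to 604 lower genes among all genes tested. The lower genes among all genes tested numbered 372 without a filter, 504 and 508 with the centring and the trimmed mean, 588 with quantile normalization against 600 higher, 515 without a trend, 314 without shrinkage and 958 with equal totals. The mitochondrial median was -0.036 with quantile normalization, ran from -0.032 to 0.038 when 1 library was left out, and changed sign with the scaling. The difference in the log2 ratio of mitochondrial to nuclear sums was 0.013 with quantile normalization and 0.10 to 0.18 when 1 library was left out. Over all genes tested, deviations from the group mean had correlations of -0.0155, 0.0157 and -0.0162 in same-numbered libraries. Pairs with different numbers ran from -0.0461 to 0.0608. With 3 libraries per group, these values cannot decide whether the numbers pair the libraries. With the replicate number as a block, 16 members were lower and 2 higher, mt-Co2 (adjusted p = 0.00889) beside mt-Atp6. The cause of these shifts was not tested. Low fragment numbers limit what can be read from mt-Atp8, with at most 2 fragments, and from the second forms of complex IV subunits.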

Other observations

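Some subunits of the same complex were listed at very different FPKM, among them 3 small subunits whose gene models are long. Ndufb2, an accessory subunit of complex I, was at 0.449 to 0.613 FPKM from 46 to 65 fragments on 5628 bases. Ndufab1, the mitochondrial acyl carrier protein, was at 2.25 to 2.81 FPKM on 6883 bases and did not pass the test (log2 fold change -0.03). Atp5l, the g subunit of ATP synthase, was at 2.54 to 3.48 FPKM on 6443 bases (log2 fold change -0.17, limma adjusted p = 0.161). Cox6a1, at 404 to 490 FPKM on 702 bases, had 5204 to 6491 fragments, so Ndufb2 was also far lower in fragments before any division by length. Atp5b was at a mean of 300.4 FPKM on 4237 bases and Atp5g1 at 21.9 FPKM on 4912 bases. The relation of length to level was not tested, and nuclear members were not searched for sequence shared with pseudogenes. The isoforms used in these cells were not measured.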
